A study of Rattus norvegicus with 12 samples.

Results

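The 45 genes described here encode the machinery that folds new proteins in the endoplasmic reticulum (ER), forms their disulfide bonds and removes those that fail to fold. They were chosen by name, and a gene counted as measured when at least 1 probe set of the array carried its symbol and no other. By this rule 42 of the 45 genes were measured, by 59 of 31099 probe sets, and the array holds 14218 genes with a single symbol in all. Cdnf, Derl3 and Ern1 had no such probe set and are not analysed here. RNA came from CRI-G1 cells, a rat islet tumour line that secretes insulin, in 2 forms that differ in survival when mitochondrial complex I is blocked by rotenone. CRI-G1-RR is the rotenone resistant original clone, and CRI-G1-RS is a rotenone sensitive subclone that arose from it by a spontaneous change in culture. Each form contributed 6 samples, all untreated and grown in high glucose DMEM with serum, from 6 passages that were collected in pairs. Since each form is a single clone, the 6 samples of a form show how far cultures of that clone vary, and not how far rotenone resistant or sensitive cells vary in general.

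Proteins bound for secretion enter the ER unfolded. There the Hsp70 chaperone BiP and its partners hold them, oxidoreductases of the protein disulfide isomerase family pair their cysteines, and the lectins calnexin and calreticulin retain glycoproteins until they fold. Proteins that stay misfolded are recognised, drawn back through the membrane, tagged with ubiquitin and degraded. Insulin itself carries disulfide bonds, so cells that make it depend on this machinery, and the unfolded protein response raises its genes when the load grows.

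One array stood apart in its control probe sets, replicate 2 of RS cells. Its ratio of 3′ to 5′ signal for Actb was 8.28, where the 6 RR arrays gave 3.06 to 3.79 and the other 5 RS arrays 2.75 to 3.29, and for Gapdh it was 1.53 against 1.23 to 1.29. Its part in the results was not tested, and without it 18 of the 42 genes were higher and 8 lower, the added one being Pdia4.

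The test was limma on 6 arrays against 6, with a threshold of 0.05 on p adjusted over the whole array. By it 17 of the 42 measured genes were higher in RS than in RR cells, 8 were lower and 17 did not pass. That is 59.5% of the genes, against 39.2% of all genes tested. The share that was higher was 40.5% against 21.0% of all genes, and the share that was lower was 19% against 18.3%. In 12 of the 42 genes every RS array lay above every RR array, and in 7 every RS array lay below, together 45.2% against 27.7% of all genes (values after quantile normalization). These shares of all genes include dim genes, while 40 of the 42 genes had a mean signal of at least 50. With probe sets under a mean signal of 50 left out, 9477 of 18485 probe sets passed. In that fit 18 of 40 genes were higher and 9 lower. How far signal level accounts for the larger shares among the 42 genes was not tested. The median log2 fold change of the 42 genes was 0.14, and that of all genes was 0.02. In bulk samples like these, fewer cells of a kind and less RNA per cell cannot be told apart. Most differences were small. Only Ero1b, Hyou1 and Dnajc3 were at least 2-fold higher among the genes that passed, and only Os9 at least 2-fold lower, with Creld2 just short of that at a log2 fold change of 0.998. Every log2 fold change here is RS minus RR on the scale of log2(signal + 16), positive where RS cells were higher, and the added 16 understates the changes of dim genes.

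By role, the chaperones and the lectins were mostly higher. Of 11 measured Hsp70 and Hsp90 chaperones and their partners, 7 were higher, 2 lower and 2 did not pass, with a median log2 fold change of 0.47. All 3 genes of the lectin cycle were higher, with a median of 0.41. Of 13 disulfide and proline isomerases, 3 were higher, 2 lower and 8 did not pass, with a median of 0.07. Of 11 measured genes of ER degradation, 4 were higher, 4 lower and 3 did not pass, with a median of 0.01. None of the 4 measured sensors and processors passed. The gene of the sensor PERK, Eif2ak3, is not one of them and is given further below. The shares that passed were 81.8% of the chaperones and partners, 38.5% of the isomerases, 100% of the lectin cycle and 72.7% of ER degradation. Of all genes, dim ones included, 39.2% passed, so the share of the isomerases was close to that of all genes. These groups are small, and their shares and medians describe genes chosen by name and were not tested.

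**Figure D1:**
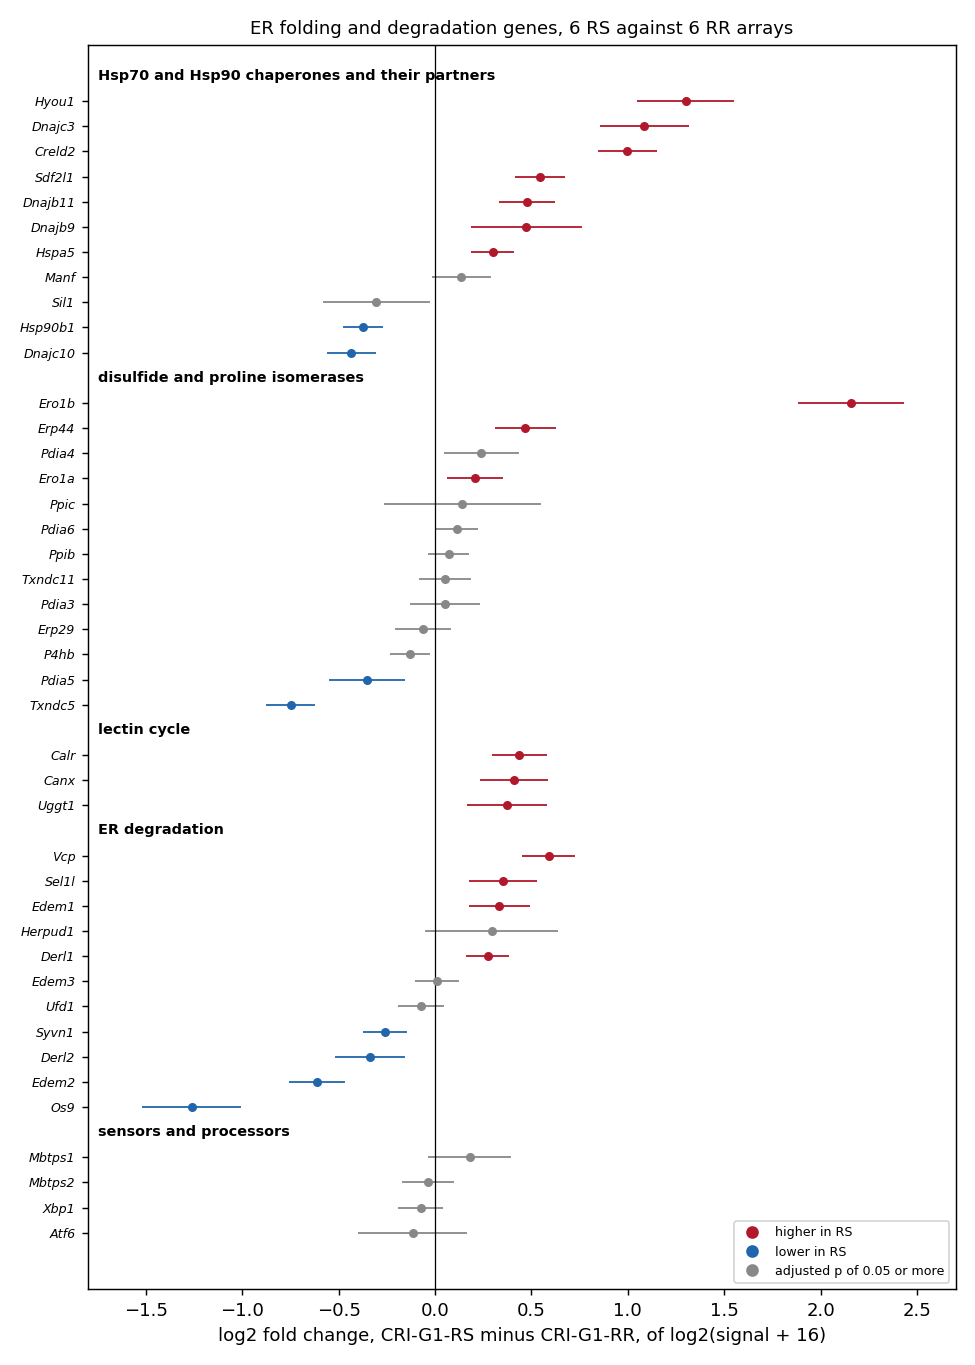
Log2 fold change (RS minus RR, of log2(signal + 16)) of the 42 measured genes by role, with points for the limma estimate from 6 arrays against 6 and bars for its 95% confidence interval. Ero1b at 2.16 and Os9 at -1.26 are the extremes, the lectin cycle genes lie between 0.37 and 0.44, and all 4 sensors and processors have intervals that include 0.

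The ER stress element, a pair of short boxes bound by the transcription factors NF-Y and ATF6, is the best known sequence shared by genes of this kind. It was searched as CCAAT, any 9 bases and CCACG on both strands of the RefSeq promoter windows (GRCr8), which run from 250 bases before to 50 after each annotated start. Windows were listed for 37 of the 45 genes, and 9 of these genes held the element, 24.3%, against 21 of 27457 genes of the genome, 0.0765%. The 21 genes include the 9. Since the element is known from genes of this kind, its high share among them is not a finding of these data. The 8 of the 9 genes with a probe set are shown, 5′ to 3′ on the strand of the gene, with the boxes in capitals. The boxes read CCAAT and CCACG where the element runs with the gene and CGTGG and ATTGG where it runs against it, and Hsp90b1 has one of each.
Hspa5, chr3:38452953-38453011, plus strand: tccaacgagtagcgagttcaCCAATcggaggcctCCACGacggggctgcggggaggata
Hsp90b1, chr7:23012431-23012489, minus strand: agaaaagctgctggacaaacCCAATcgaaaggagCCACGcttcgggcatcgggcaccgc
Hsp90b1, chr7:23012327-23012385, minus strand: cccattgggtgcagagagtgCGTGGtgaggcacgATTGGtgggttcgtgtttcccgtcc
Creld2, chr7:121789219-121789277, plus strand: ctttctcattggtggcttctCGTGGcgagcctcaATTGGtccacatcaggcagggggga
Canx, chr10:35158049-35158107, minus strand: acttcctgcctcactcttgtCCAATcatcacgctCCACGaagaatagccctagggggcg
Xbp1, chr14:84604538-84604596, plus strand: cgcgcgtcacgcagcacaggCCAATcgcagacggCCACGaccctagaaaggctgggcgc
Dnajc3, chr15:102432514-102432572, plus strand: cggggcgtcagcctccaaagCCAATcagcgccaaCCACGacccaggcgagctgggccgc
Ero1b, chr17:92941438-92941496, plus strand: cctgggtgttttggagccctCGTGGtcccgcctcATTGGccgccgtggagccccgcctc
Calr, chr19:40213117-40213173, plus strand: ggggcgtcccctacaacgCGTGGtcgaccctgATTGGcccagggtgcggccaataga

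Of these 8 genes, 6 were higher in RS cells, from Hspa5 at a log2 fold change of 0.30 to Ero1b at 2.16, while Hsp90b1 was lower at -0.37 and Xbp1 did not pass at -0.07. Their median log2 fold change was 0.42. Of the 27 measured genes whose windows lacked the element, 9 were higher, 6 lower and 12 did not pass, with a median of 0.07. Both medians are descriptions, and the presence of the letters does not show that a factor was bound in these cells. Genes that were not among those chosen here also held the element. Of those with a probe set, Ankmy2 and Zfp57 were higher, at log2 fold changes of 0.28 and 0.67, and Zfand2a was lower at -1.04. Birc5, Calr4, Foxd4, Hnrnpa3, Pan2 and Ppm1l did not pass. Over all genes tested, 21.0% were higher and 18.3% lower. Whether the element goes with higher signal in RS cells was not tested. The cores TGACGTGG and TGACGTGA of the unfolded protein response element were found on either strand in the windows of 6 of the 37 genes, 16.2%, against 1.11% of all genes. These were Hspa5, Hyou1 and Vcp, which were higher, Dnajc10, which was lower, and Txndc11 and Erp29, which did not pass. No window of the measured genes Pdia6, Manf, Os9, Atf6, Ero1a, Pdia3 and Derl1 was used here.

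Among the chaperones and their partners, Hyou1, Dnajc3 and Creld2 differed most. Hyou1 encodes the large Hsp70-like protein that exchanges the nucleotide of BiP. Signals ranged from 133 to 192 on the RR arrays with a median of 167, and from 363 to 588 on the RS arrays with a median of 407. The groups did not overlap, and replicate 2 of RS cells stood apart at 588 where the other 5 reached at most 427. The means were 163 ± 22.3 (SD, n = 6) and 432 ± 79.7 (SD, n = 6), a log2 fold change of 1.30 (limma standard error 0.12, adjusted p = 2.02e-06), and 1.21 without that array. A second, dimmer probe set of Hyou1 gave 0.46 (adjusted p = 0.00155).

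Dnajc3 encodes an ER DnaJ cochaperone, p58IPK, that binds unfolded chains. Its signal ran from 272 to 457 on the RR arrays with a median of 324, and from 673 to 781 on the RS arrays with a median of 758. Every RS array was above the RR arrays, of which replicate 3 was the highest. The mean went from 344 ± 67.8 (SD, n = 6) to 743 ± 40.7 (SD, n = 6), a log2 fold change of 1.09 (limma standard error 0.11, adjusted p = 4.51e-06). Creld2, a secreted and ER-resident protein with disulfide isomerase activity that is induced by ER stress, was brighter on every RS array than on any RR array. It ran from 1043 to 1317 on the RR arrays with a median of 1134, and from 2094 to 2405 on the RS arrays with a median of 2316. Its log2 fold change of 1.00 (limma standard error 0.07, adjusted p = 2.61e-07) stayed between 0.95 and 1.04 under the alternative settings and with any 1 array left out.

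Sdf2l1 and Dnajb11 encode subunits of a BiP complex, and Dnajb11 (ERdj3) delivers clients to BiP. Sdf2l1 ran from 2068 to 2521 on the RR arrays (median 2253) and from 3031 to 3345 on the RS arrays (median 3202). Dnajb11 ran from 1062 to 1305 on the RR arrays (median 1208) and from 1537 to 1746 on the RS arrays (median 1653). In neither gene did the lines overlap, and the log2 fold changes were 0.54 (adjusted p = 1.15e-05 by limma) for Sdf2l1 and 0.48 (adjusted p = 9.57e-05) for Dnajb11. Dnajb9 (ERdj4), which binds the stress sensor IRE1 and ER degradation substrates, was also higher, at 0.47 (adjusted p = 0.0147 by limma). Its lines overlapped in 1 RS array, since replicate 2 gave 681 where the other RS arrays gave at least 965 and the RR arrays at most 847. Without that array the log2 fold change of Dnajb9 was 0.59.

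Hspa5 encodes BiP itself, the Hsp70 that these partners serve. Signals ranged from 4645 to 5207 on the RR arrays with a median of 4843, and from 5428 to 6188 on the RS arrays with a median of 5600.0. All RS arrays were above all RR arrays, by a small margin. The means were 4864 ± 186 (SD, n = 6) and 5693 ± 292 (SD, n = 6), and after quantile normalization the log2 fold change was 0.30 (95% confidence interval 0.19 to 0.41, adjusted p = 0.000565 by limma). With the scaling as deposited Hspa5 gave 0.23 (adjusted p = 0.00596 by limma), and with median centring 0.21 (adjusted p = 0.0318). Hsp90b1 went the other way. It encodes GRP94, the Hsp90 of the ER, and was one of the brightest of these probe sets, with 4807 to 5464 on the RR arrays (median 5184) and 3636 to 4277 on the RS arrays (median 3753). Every RS array lay below the RR arrays, and the log2 fold change was -0.37 (95% confidence interval -0.48 to -0.27, adjusted p = 5.09e-05 by limma).

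Dnajc10 (ERdj5), a DnaJ protein that reduces disulfides before degradation, was lower on its brighter probe set. Its signal ran from 1436 to 1801 on the RR arrays (median 1519) and from 1103 to 1191 on the RS arrays (median 1147), so the lines did not overlap. The log2 fold change was -0.43 (adjusted p = 8.22e-05 by limma). The other probe set of Dnajc10 gave 0.13 (adjusted p = 0.255), so the lower level rests on 1 of 2 probe sets. Manf, a secreted survival factor that binds BiP, did not pass at 0.14 (adjusted p = 0.174), nor did Sil1, the other exchange factor of BiP, at -0.30 (adjusted p = 0.0926).

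**Figure D2:**
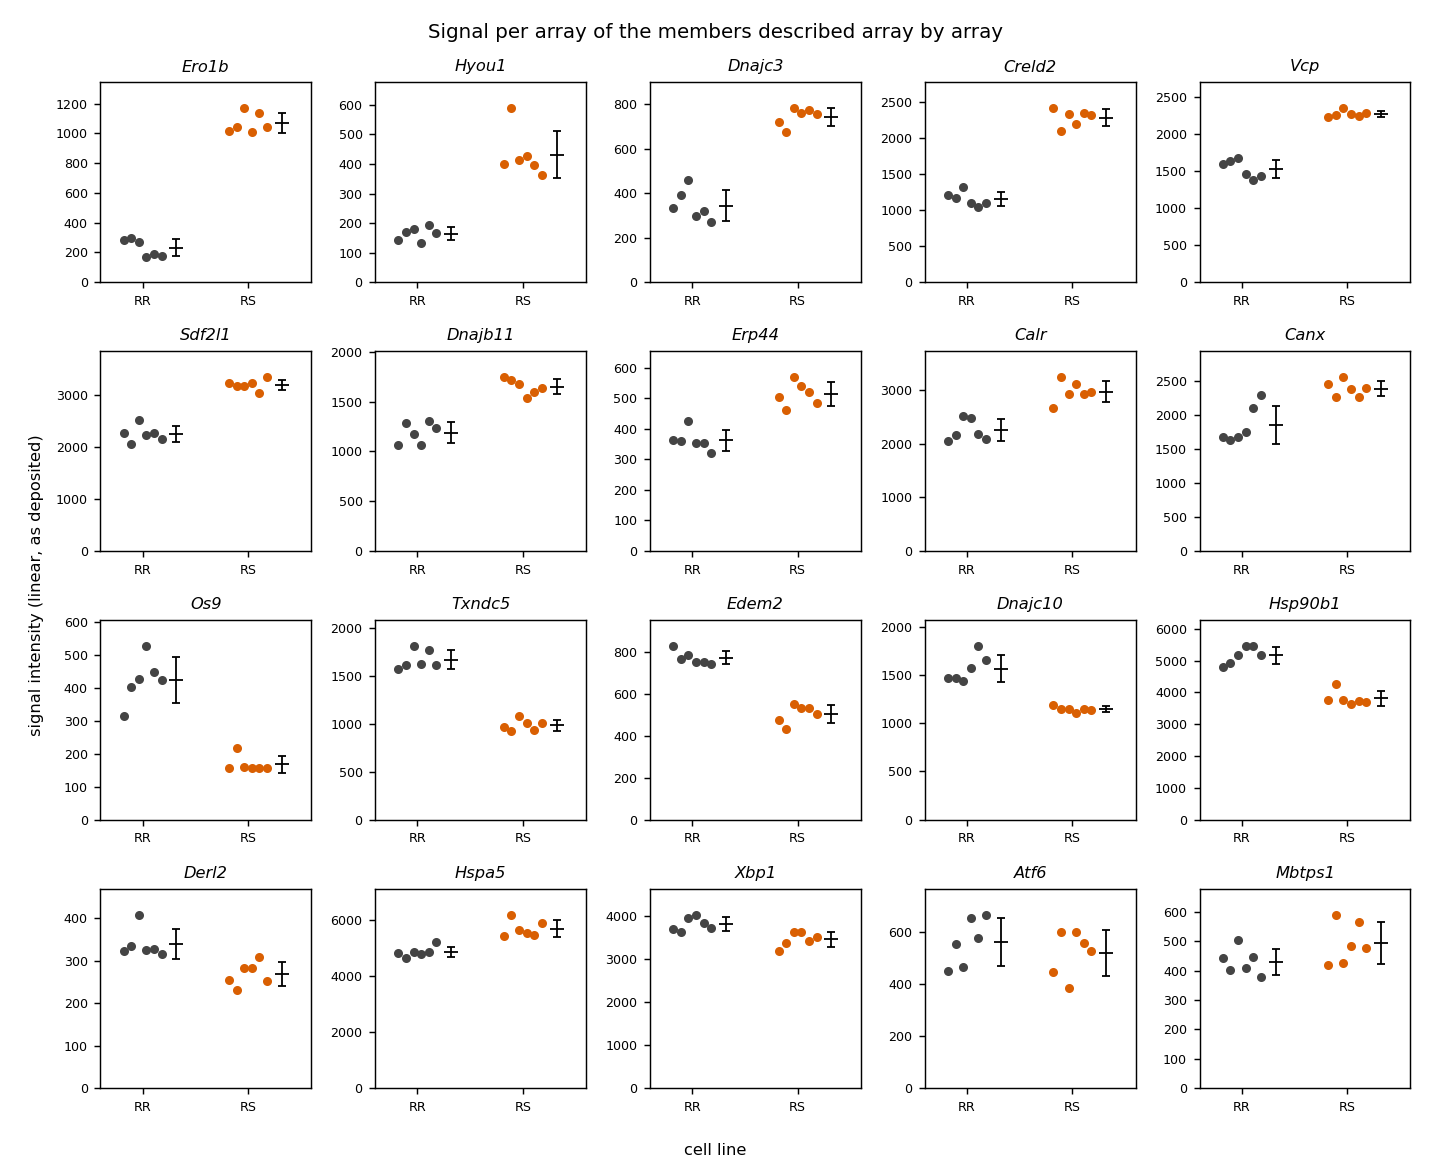
Deposited signal intensity (linear, from 0) of 20 genes on each of 6 RR and 6 RS arrays, with points for arrays in order of replicate number and a bar for the mean ± SD. The RS arrays lie wholly above the RR arrays in the first 10 genes, apart from an edge of Canx, and in Hspa5, and wholly below in the 6 genes from Os9 to Derl2, while Xbp1, Atf6 and Mbtps1 overlap.

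Ero1b changed more than any other of the 42 genes. It encodes ERO1-beta, the ER oxidase that is enriched in the endocrine pancreas and hands oxidising power to protein disulfide isomerases. Signals ranged from 172 to 296 on the RR arrays with a median of 228, and from 1011 to 1168 on the RS arrays with a median of 1042. The lines were far apart. The RR arrays fell into a brighter set, replicates 1, 2 and 3 at 281, 296 and 268, and a dimmer set, replicates 4, 5 and 6 at 172, 188 and 177. This split was not particular to Ero1b. The same sets were apart in the same direction in Vcp (1600 to 1684 against 1383 to 1464), Creld2 and Dnajc3, and in the opposite direction in Dnajc10. In Hyou1 and Hspa5 the sets overlapped. What set these replicates apart was not tested. The means were 230.4 ± 57.1 (SD, n = 6) and 1069 ± 67.4 (SD, n = 6), a log2 fold change of 2.16 (limma standard error 0.13, adjusted p = 5.78e-08), which is 4.46-fold on this scale. The other probe set of Ero1b was near background, with means of 3.21 and 16.9, and gave 0.73 (adjusted p = 0.00296).

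The general oxidase gene Ero1a moved little. Its signal ran from 591 to 703 on the RR arrays (median 642) and from 690.4 to 857 on the RS arrays (median 744), and the lines overlapped. The log2 fold change of 0.21 passed (adjusted p = 0.0307 by limma) but did not pass when any of 6 single arrays was left out, RR replicates 2, 5 and 6 and RS replicates 1, 4 and 5, with adjusted p from 0.0507 to 0.0668. Erp44, which retains ERO1 proteins and other clients in the early secretory pathway, was higher on its brightest probe set, with 322 to 427 on the RR arrays (median 357) and 460.3 to 569 on the RS arrays (median 513). The lines did not overlap, and the log2 fold change was 0.47 (adjusted p = 0.000249 by limma). The other 2 probe sets of Erp44 gave 0.30 (adjusted p = 0.195) and 0.05 (adjusted p = 0.806) and did not pass.

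The protein disulfide isomerases themselves did not move as a group. Txndc5, a member with 3 thioredoxin domains known as ERp46, was lower, with 1580 to 1818 on the RR arrays (median 1626) and 930.2 to 1082 on the RS arrays (median 989.8). No RS array reached the RR arrays, and the log2 fold change was -0.75 (limma standard error 0.06, adjusted p = 6.72e-07). Pdia5 was lower by less, from 185 ± 26.2 (SD, n = 6) to 142 ± 14.9 (SD, n = 6), a log2 fold change of -0.35 (adjusted p = 0.00941 by limma) with overlapping arrays.

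The remaining isomerases did not pass. P4hb, the founding protein disulfide isomerase, gave -0.13 (95% confidence interval -0.23 to -0.02, adjusted p = 0.0597), and with the scaling as deposited it was lower at -0.19 (adjusted p = 0.0169 by limma). Pdia4 had 0.24 (adjusted p = 0.0603) and Pdia6 had 0.12 (adjusted p = 0.105). Pdia4 passed without RR replicate 3 (0.29, adjusted p = 0.0187 by limma) and without RS replicate 2 (0.29, adjusted p = 0.0155). Pdia3, the isomerase that works with calnexin and calreticulin, had 0.05 (adjusted p = 0.707) on its bright probe set, while a dim one was lower at -0.74 (adjusted p = 4.49e-05 by limma). The values were 0.05 for Txndc11, -0.06 for Erp29 and 0.07 for the proline isomerase gene Ppib, with adjusted p of 0.59, 0.545 and 0.329. Ppic, another proline isomerase gene, was near background at mean signals of 20.1 and 24.3, and its value of 0.14 (adjusted p = 0.64) says little.

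In the lectin cycle, calreticulin and calnexin bind glycoproteins that carry 1 terminal glucose, and Uggt1 puts that glucose back on proteins that are not yet folded. Calr ran from 2043 to 2519 on the RR arrays (median 2178) and from 2672 to 3242 on the RS arrays (median 2951). Canx ran from 1640 to 2294 on the RR arrays (median 1710.3) and from 2274 to 2560.5 on the RS arrays (median 2391), and on the deposited scale its lines met at 2294 and 2274. After quantile normalization no RS array of either gene was below an RR array. The log2 fold changes were 0.44 for Calr (adjusted p = 0.000184 by limma) and 0.41 for Canx (adjusted p = 0.00146). The RR arrays of Canx spread widely, with replicates 5 and 6 at 2105 and 2294 and the other 4 at no more than 1746. Its other 2 probe sets gave 0.85 (adjusted p = 4.45e-07) and 0.88 (adjusted p = 0.0014), larger than the value of the probe set used here. Uggt1 was higher at 0.37 (adjusted p = 0.00827 by limma), from a mean of 110.1 ± 14.2 (SD, n = 6) to 149 ± 16 (SD, n = 6).

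Genes of ER degradation split. On the higher side, Vcp encodes the p97 ATPase that pulls substrates out of the membrane. Signals ranged from 1383 to 1684 on the RR arrays with a median of 1532, and from 2236 to 2348 on the RS arrays with a median of 2268. The RS arrays were tightly grouped and wholly above the RR arrays. The means were 1533 ± 121 (SD, n = 6) and 2274 ± 41.2 (SD, n = 6), a log2 fold change of 0.59 (limma standard error 0.06, adjusted p = 1.08e-05). Ufd1, a cofactor of p97, did not pass, at -0.07 (adjusted p = 0.372). Sel1l, the adaptor of the ubiquitin ligase HRD1, had 0.35 (adjusted p = 0.00448 by limma), and Edem1, which marks glycoproteins for degradation, had 0.33 (adjusted p = 0.00323). The 2 dimmer probe sets of Edem1 did not pass. Derl1, a channel component, was higher at 0.27 (adjusted p = 0.00121 by limma), with a second probe set at 0.48 (adjusted p = 8.04e-05) and another at 0.04 (adjusted p = 0.743).

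On the lower side, Os9 stood out. It encodes a lectin that reads the trimmed sugars of misfolded glycoproteins and passes them to SEL1L. Its signal ran from 314 to 528 on the RR arrays with a median of 427, and from 156 to 219 on the RS arrays with a median of 158. No RS array reached the RR arrays, and 5 of the RS arrays lay between 156 and 159, with replicate 2 apart at 219. The means were 425 ± 69.4 (SD, n = 6) and 168 ± 25 (SD, n = 6), a log2 fold change of -1.26 (limma standard error 0.12, adjusted p = 3.24e-06), and -1.34 without that array. The second probe set of Os9 was lower too (adjusted p = 0.000116), from a mean of 104 to 45.0.

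Edem2, the mannosidase that starts the trimming, ran from 744 to 830 on the RR arrays (median 762) and from 431 to 551 on the RS arrays (median 518). The lines were far apart relative to their spread, and the log2 fold change was -0.61 (limma standard error 0.07, adjusted p = 1.17e-05). Derl2, a relative of Derl1, ran from 315 to 409 on the RR arrays (median 328) and from 231 to 308 on the RS arrays (median 269), a log2 fold change of -0.34 (adjusted p = 0.00702 by limma). Its lines came close without meeting, and its second probe set gave -0.29 (adjusted p = 0.0155). Syvn1, which encodes HRD1 itself, was lower at -0.26 (adjusted p = 0.00161 by limma), the opposite direction to its adaptor Sel1l. Herpud1, a stress-induced partner of HRD1, had 0.29 (adjusted p = 0.197) and a wide spread, from 274 to 596 on the RR arrays and from 424 to 648 on the RS arrays. Edem3 was at background on both lines, with mean signals of 1.52 and 1.67.

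The measured genes of the group of sensors and processors of the unfolded protein response did not pass. Of the stress sensors themselves this group covers only Atf6. Ern1 was not measured, and Eif2ak3, counted below with the PERK branch, was lower. Xbp1 encodes the transcription factor that IRE1 activates by splicing its mRNA, and the array signal does not separate the spliced form. Signals ranged from 3615 to 4019 on the RR arrays (median 3772) and from 3176 to 3627 on the RS arrays (median 3454), and the lines met only at their edges. After quantile normalization the log2 fold change was -0.07 (95% confidence interval -0.19 to 0.04, adjusted p = 0.34 by limma). Atf6, the membrane-bound factor that is cut to become active, ran from 452 to 668 on the RR arrays (median 568) and from 387 to 601 on the RS arrays (median 545). Its log2 fold change was -0.12 (95% confidence interval -0.40 to 0.17, adjusted p = 0.571). Mbtps1 and Mbtps2 encode the proteases that cut ATF6. Mbtps1 ran from 380 to 503 (median 424) and from 417 to 589 (median 480), and Mbtps2 from 565 to 702 (median 637) and from 575 to 653 (median 633), in RR and RS cells in that order. Both overlapped widely, and the log2 fold changes were 0.18 (95% confidence interval -0.03 to 0.40, adjusted p = 0.203) and -0.04 (95% confidence interval -0.17 to 0.10, adjusted p = 0.721). The intervals of Atf6 and Mbtps2 leave room for modest changes in either direction. That of Xbp1 lies mostly on the lower side and that of Mbtps1 mostly on the higher side. With the scaling as deposited Xbp1 gave -0.14 (adjusted p = 0.0733 by limma), and with median centring -0.16 (adjusted p = 0.0872).

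Each gene was also set beside its chromosomal surroundings, taken as the 50 nearest measured genes whose mean signal reached 100 in the gene order of GRCr8. All 17 higher genes lay above the median of their neighbours. Their choice as higher genes made that likely in advance, so the count says little about the surroundings. The median log2 fold change of the neighbours was -0.03 for Ero1b and 0.03 for Hyou1, far from the values of the genes themselves. Around Sdf2l1, Dnajb11, Vcp and Erp44 the neighbours were higher too, with medians of 0.29, 0.30, 0.27 and 0.26. Derl1 differed from its neighbours by only 0.05, at 0.27 against 0.22.

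Of the 8 lower genes, 6 lay below their neighbours and 2 above, a count that their choice as lower genes shapes in the same way. Hsp90b1, at -0.37, lies where 40 of the 50 neighbours were lower and their median was -1.06. Syvn1, at -0.26, lies where 34 of 50 were lower, with a median of -0.41. Os9 also has mostly lower neighbours, 31 of 50 with a median of -0.62, but its own value of -1.26 was further down. Txndc5 and Edem2 had neighbours with medians of -0.02 and -0.10. Sil1 and Ufd1, neither of which passed, lie among neighbours that were higher, with medians of 0.35 for both. The part of these shared shifts in the values of the genes was not tested.

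**Figure D3:**
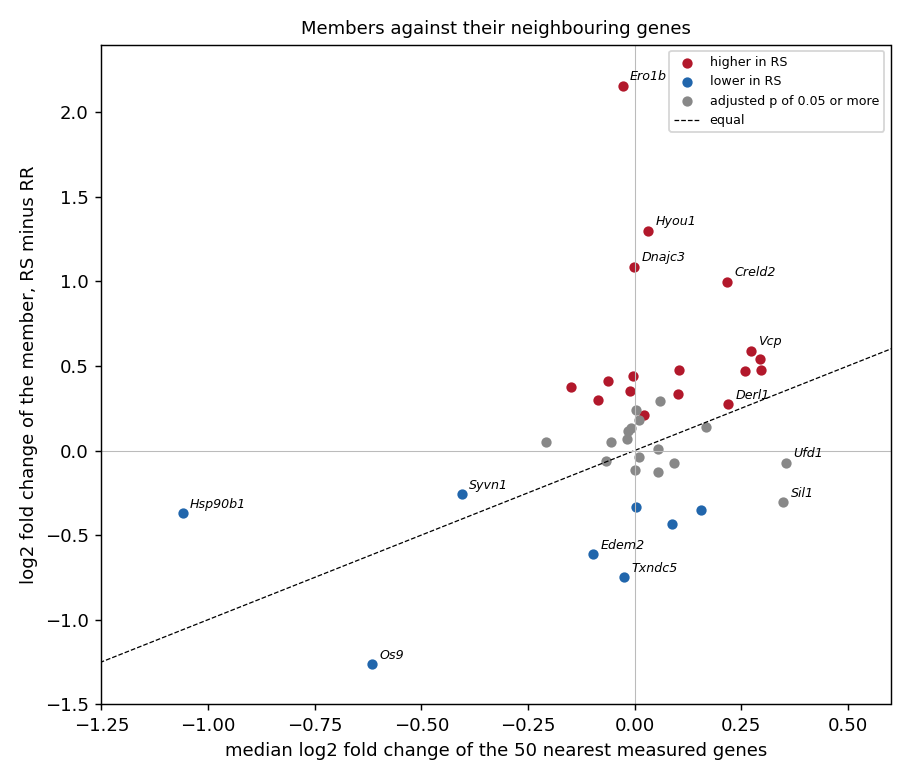
Log2 fold change (RS minus RR) of each of the 42 genes against the median of its 50 nearest measured genes, with colours for the limma call and a dashed line where both are equal. Hsp90b1 lies above the line at a neighbour median of -1.06, while Ero1b, Hyou1 and Dnajc3 lie far above neighbours whose medians are close to 0.

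Within a line, single arrays were high or low for many of these genes at once, besides the split of the RR replicates described with Ero1b. In RR replicate 3, 30 of the 40 genes whose mean signal reached 50 were above the mean of the line, with a median deviation of 0.10 on the log2 scale, and in RS replicate 4, 29 of 40 were above, with a median deviation of 0.06. Fewest were above in RS replicate 6, 11 of 40, in RS replicate 2, 12 of 40, and in RR replicate 6, 14 of 40, with median deviations of -0.02, -0.05 and -0.04. RS replicate 2 held the extremes of its line, Hyou1 at 0.46 and Dnajb9 at -0.57.

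**Figure D4:**
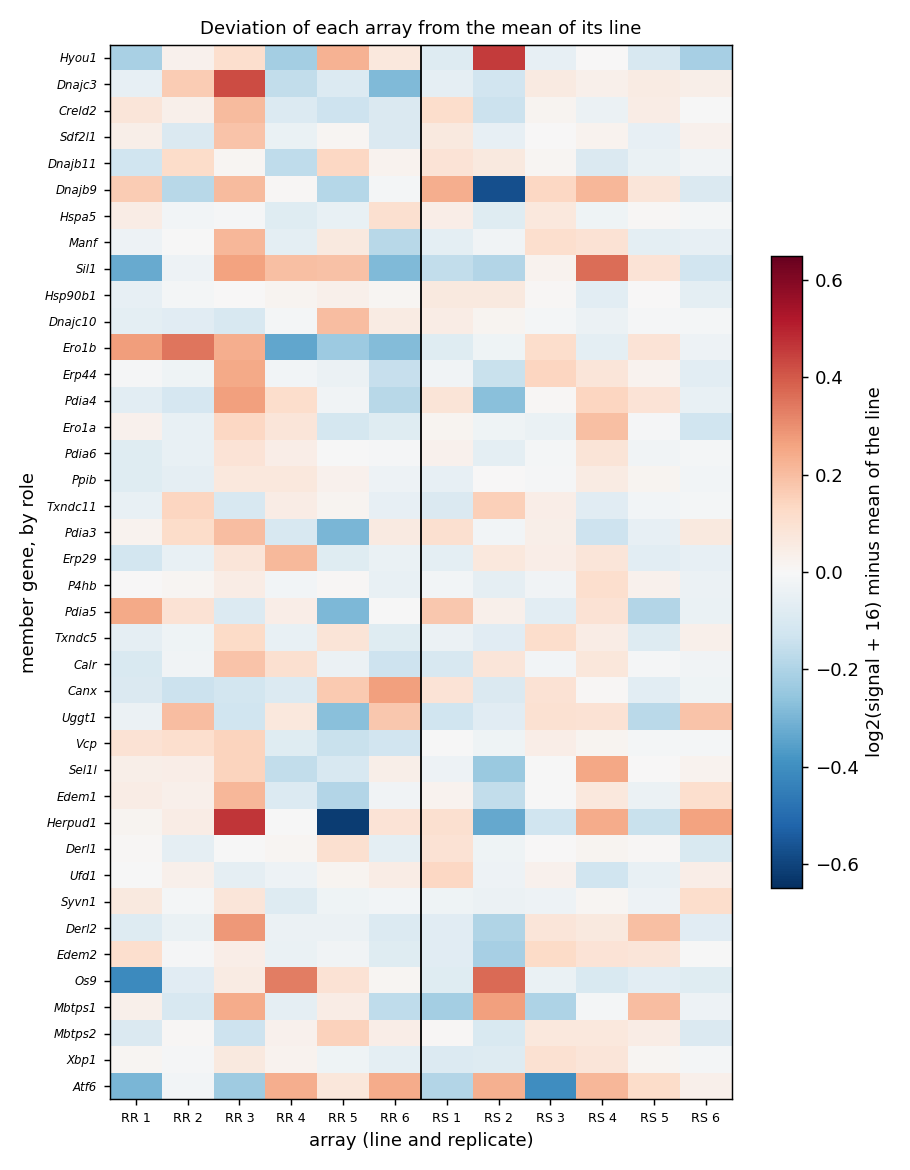
Deviation of each array from the mean of its own line, in log2(signal + 16) after quantile normalization, for the 40 genes whose mean signal reached 50 (rows, by role) on 12 arrays (columns). RR replicate 3 is above its line in 30 of 40 genes, and RS replicate 2 holds both the highest Hyou1 (0.46) and the lowest Dnajb9 (-0.57).

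Cell markers bear on what these signals come from. Both lines were bright for the islet hormones Ins1 (7118 ± 309 in RR and 6495 ± 978 in RS cells, SD, n = 6) and Gcg (7329 ± 362 and 6589 ± 576, SD, n = 6). After quantile normalization neither passed, with log2 fold changes of -0.06 for Ins1 (adjusted p = 0.408 by limma) and -0.07 for Gcg (adjusted p = 0.327). For Ins1 this differs from the study, which reported it as higher in RS cells on its own normalized arrays and by quantitative PCR. Of 4 measured markers of other islet cells, Gcg among them, 1 was higher, Ghrl at a log2 fold change of 0.91 (limma adjusted p = 0.000356) from a mean signal of 12.8 to 39.1, and 0 were lower. Their sums were 6889 to 7816.5 in RR and 6015 to 7625 in RS cells, with all but Gcg under a mean signal of 50. Of 7 measured beta cell markers 4 were higher in RS cells, Mafa by 2.17, Nkx6-1 by 1.31, Ins2 by 1.30 and Pdx1 by 1.09 on the log2 scale, while Slc2a2, the glucose transporter of beta cells, was lower (adjusted p = 0.0436 by limma) but near background in both, at mean signals of 9.70 and 1.64. The summed signal of the 7 markers was 10616 to 11875 in RR and 12654 to 15548 in RS cells, and the part of this difference in the ER genes was not tested. All 8 acinar markers were below a mean signal of 50, with sums of 131 to 195 in RR and 95.8 to 177 in RS cells. Fibroblast markers summed to 230.5 to 299.5 and 307 to 390.2, with 3 of 6 under 50 and Pdgfra higher, and leukocyte markers to 125 to 244 and 162 to 187, with 4 of 5 under 50.

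Genes next to this machinery gave mixed counts, to be read against the 39.2% of all genes that passed, a share that includes dim genes. Of 23 measured genes of the translocon, signal recognition and signal peptidase, which bring proteins into the ER, 9 were higher and 0 lower, 39.1% in all, with a median log2 fold change of 0.06. The largest were Srpra, the receptor of the signal recognition particle, at 0.81 (adjusted p = 4.58e-07 by limma), and the signal peptidase gene Sec11c at 0.65 (adjusted p = 9e-06). Of 19 genes of N-glycosylation and glycan trimming, 6 were higher and 5 lower, 57.9%, with a median of 0.03, among them Alg2 at 0.52 (adjusted p = 0.000145 by limma) and Alg8 at -1.03 (adjusted p = 1.08e-06). Of 29 further ER folding enzymes 4 were higher and 8 lower, 41.4%, with a median of -0.12, such as Tmx3 at 0.58 (adjusted p = 0.000296) and Txndc12 at -0.59 (adjusted p = 1.43e-05). Prdx4, the ER peroxiredoxin that oxidises protein disulfide isomerases in parallel to the ERO1 enzymes, was lower at -0.45 (adjusted p = 0.000973 by limma). Of 25 further ER degradation genes 11 were higher and 4 lower, 60%, with a median of 0.15, such as Selenos at 0.66 (adjusted p = 5.27e-05) and Fam8a1, a partner of HRD1, at -0.47 (adjusted p = 3.81e-05).

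Genes downstream of folding and of the PERK arm of the stress response were also measured. Of 19 genes of ER export and retrieval 5 were higher and 3 lower, 42.1%, with a median of 0.01. Kdelr3, a receptor that returns escaped chaperones to the ER, fell from 495 ± 111 (SD, n = 6) to 126 ± 21.8 (SD, n = 6), a log2 fold change of -1.86 (adjusted p = 7.14e-07 by limma). Of 10 genes of the PERK branch 2 were higher and 3 lower, 50%, with a median of -0.08. Ddit3, the transcription factor CHOP, was lower at -1.93 (adjusted p = 8.06e-06 by limma), Nupr1 at -0.91 (adjusted p = 0.000323) and Eif2ak3, which encodes PERK, at -0.41 (adjusted p = 0.0011), while Asns, asparagine synthetase, was higher at 1.06 (adjusted p = 2.18e-08). Of 14 genes for the secretory cargo of islet cells 6 were higher and 0 lower, 42.9%, with a median of 0.16, led by Ins2 at 1.30 and Pcsk2 at 0.97.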

How the data were processed

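The authors deposited linear signal intensities for 31099 probe sets on 12 Affymetrix Rat 230 2.0 arrays, made with GCOS 1.4 according to the submitters' processing notes. The arrays had been scaled to a trimmed mean of 250.0. The study's methods describe robust multi-chip averaging, whose values are on the log2 scale, whereas the signals used here are linear. Here quantile normalization and log2(signal + 16) came before a fit in limma 3.58.1 (R 4.3.3) on cell type alone. Two-sided p-values of the whole array were adjusted together (Benjamini-Hochberg), with a threshold of 0.05 and without a filter on low signal. Means ± SD are of deposited signals. Where a gene had several probe sets, the brightest on average stands for it. Symbols come from the platform annotation, in which 20832 probe sets have 1 symbol, 436 have several and 9831 are without one.

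The genes and lists were chosen with earlier results of these data known. Genes were given array by array if they passed and their normalized arrays did not overlap, up to 10 higher and 6 lower by size, with Hspa5 and the sensors and processors always. Exact permutation tests of 6 arrays against 6 cannot go below a two-sided p of 0.00216, which every gene without overlap reached. Detection calls were not used here, and the number of arrays limits the precision. The fit was tested on simulated data. The alternatives were another scaling, centring, pseudocount (1 or 64), filter (mean signal of 50), probe set rule, variance model, array weights, a test against 1.2-fold, the replicate number as a block, and leaving out each array.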

Additional observations from a re-analysis of the deposited data

Results flagged for a closer look

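In 6 of 84 groups of 6 arrays (42 genes in each line), the highest or lowest array was set off from the others by more than Dixon's 95% critical value allows as a share of the group's range. Chance alone gives about 1 in 20 groups. The gaps were taken on normalized log2(signal + 16), while the signals given beside them are as deposited. In RS replicate 2 this held for Hyou1, with a gap of 0.674 and a signal of 588 against 363 to 427, and for Os9, with a gap of 0.889 and 219 against 156 to 159. In RR replicate 3 it held for Derl2, with a gap of 0.863 and 409 against 315 to 334, and for Erp44, with a gap of 0.642 and 427 against 322 to 364. In RS replicate 6 it held for Syvn1, the highest, with a gap of 0.676 and 889 against 797 to 823, and for Ppic, the lowest, with a gap of 0.678 and 6.96 against 23.6 to 34.3, where the whole group was near background. On the deposited signals the gaps of Erp44 and Ppic, 0.601 and 0.609, were below the critical value, and those of the other 4 genes, 0.715 to 0.949, were above it. Leaving out any single array kept the calls of Hyou1, Os9, Derl2, Erp44 and Syvn1.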

How the results depend on the processing

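No direction among the 25 genes that passed turned under any alternative. All 25 calls held under the alternatives run, except for Ero1a, given with its values above, and for a test that asks for more than a 1.2-fold change. Under that test 7 genes were higher and 3 lower, where 17 and 8 had been, and 4059 in place of 9860 probe sets passed. The higher genes were Ero1b, Hyou1, Dnajc3, Creld2, Vcp, Sdf2l1 and Dnajb11, and the lower genes Os9, Txndc5 and Edem2. All genes of the lectin cycle, Hspa5 and Hsp90b1 were among those that no longer passed. Median centring moved the median of the 42 genes from 0.14 to 0.10. Leaving out each array in turn gave 16 to 18 genes higher, 8 to 10 lower, a median of 0.12 to 0.17, and 9162 to 10010 probe sets. Whether the replicate numbers mark the pairs of passages is not known. Arrays of the same number had correlations of -0.06 to 0.08 between their deviations, and only 2 of 6 numbers correlated best with their own. Such weak correlations cannot decide it, since paired passages need not share deviations. With the replicate block 17 genes were higher and 9 lower, the added one being Sil1 (adjusted p = 0.0253 by limma), the median was 0.14, and 9204 probe sets passed. Sil1 was also lower without RR replicate 1 (-0.37) or RS replicate 4 (-0.38), and P4hb without RS replicate 4 (-0.15). P4hb, Pdia4 and Pdia6 passed with a pseudocount of 64 and with an intensity trend. Pdia3 was lower when the probe set with the smallest p (-0.74) or the mean over its probe sets (-0.35) was used. With the mean over probe sets or another probe set, the log2 fold change of Ero1b was as low as 1.44, that of Hyou1 0.88, that of Erp44 0.27 and that of Dnajc10 -0.15, and that of Canx as high as 0.85. Signal near background limits Ppic and Edem3.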
